A study of Homo sapiens and Mus musculus with 19 samples.

Results

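HepG2, a liver cell line from a hepatocellular carcinoma, had low CpG methylation over much of its genome in these data, but 4884 autosomal bins of 100 kb remained highly methylated. These high-methylation bins were chosen by their own values. Each bin runs from position 1 of hg38, held at least 20 tags in each of the 4 libraries of 1000 cells, and had a 5-methylcytosine (5mC) share over 80% in both HepG2 libraries of 1000 cells. They were 18.2% of the 26772 bins that passed the tag minimum, out of 27559 autosomal bins with a CCGG site. The other 21888 bins that passed it are called the other bins. The HepG2 5mC values of the 1000-cell libraries are therefore a description, and the 5mC cut did not use the single cells or the H1ES libraries. The H1ES libraries of 1000 cells entered the choice through the tag minimum alone.

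The assay (DARESOME) sorts each CCGG site by restriction digestion into unmethylated, 5mC and 5-hydroxymethylcytosine (5hmC) tags. HepG2 was set against H1ES, a human embryonic stem cell line, each with 2 libraries of 1000 cells and 5 libraries of 1 cell; neither line carries an allele or treatment in the labels. The labels do not say whether libraries of 1 group came from separate cultures, so p-values measure the spread between libraries alone, and that spread may be technical. The mouse cerebellum libraries of the series were not used here. Tag totals were 4911898 to 6644517 in the 1000-cell libraries and 757767 to 1543724 in H1ES cells. HepG2 cells fell into shallow ones, numbers 1, 2 and 4 (526207 to 611318), and the deep cells 3 (2455908) and 5 (2434482). As a check of the lines, 4 of 12 hepatocyte marker promoters had at least 5 tags in each 1000-cell library and were all less methylated in HepG2, with a median unmethylated share of 90.4% in HepG2 and 0.862% in H1ES. Of 12 pluripotency markers 5 were measured and 3 were less methylated in H1ES in every library, with median unmethylated shares of 16.3% in HepG2 and 81.3% in H1ES.

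Most CpGs in mammalian DNA carry 5mC, which DNMT enzymes place and copy, and TET enzymes oxidise it to 5hmC. Unmethylated CpGs cluster in CpG islands at gene starts, whereas the bodies of transcribed genes are usually methylated. Cultured and cancer cells often lose methylation over long, gene-poor stretches called partially methylated domains, and the DNA between such domains keeps it.

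The high methylation of these bins was broken at gene starts, and the promoters below are examples of both states. They lie inside high-methylation bins. PRORP, IPO4 and PSME1 are among the 5 promoters with most tags that were under 20% 5mC in both HepG2 libraries, and CDK10, KCNJ13 and PHYHD1 are among the 5 with most tags that were over 80%. Each sequence is the 250 bases before the gene start, 5′ to 3′ on the gene's strand, from RefSeq (GRCh38.p14). Capitals mark CCGG, the site the assay reads, which is the same on both strands. Of 15100 autosomal promoters in that table, 76.1% hold a CCGG in the window from 250 bases before to 50 after the start. Promoter shares are of tags pooled over this window. The windows of PRORP, IPO4 and PHYHD1 hold 2, 5 and 2 CCGG, and the printed stretches 1, 4 and 1.
PRORP: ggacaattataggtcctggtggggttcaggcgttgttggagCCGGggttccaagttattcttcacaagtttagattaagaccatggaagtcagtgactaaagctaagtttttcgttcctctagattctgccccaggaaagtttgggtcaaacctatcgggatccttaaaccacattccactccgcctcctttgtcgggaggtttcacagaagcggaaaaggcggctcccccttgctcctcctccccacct
IPO4: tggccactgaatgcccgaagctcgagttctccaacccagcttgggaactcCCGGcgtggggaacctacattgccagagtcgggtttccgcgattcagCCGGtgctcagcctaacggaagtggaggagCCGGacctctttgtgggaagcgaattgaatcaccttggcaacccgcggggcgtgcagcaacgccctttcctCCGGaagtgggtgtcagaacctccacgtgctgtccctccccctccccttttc
PSME1: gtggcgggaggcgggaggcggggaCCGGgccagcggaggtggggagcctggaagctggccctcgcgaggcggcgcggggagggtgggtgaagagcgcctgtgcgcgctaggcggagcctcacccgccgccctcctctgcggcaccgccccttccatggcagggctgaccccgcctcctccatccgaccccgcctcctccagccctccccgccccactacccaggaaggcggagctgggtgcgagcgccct
CDK10: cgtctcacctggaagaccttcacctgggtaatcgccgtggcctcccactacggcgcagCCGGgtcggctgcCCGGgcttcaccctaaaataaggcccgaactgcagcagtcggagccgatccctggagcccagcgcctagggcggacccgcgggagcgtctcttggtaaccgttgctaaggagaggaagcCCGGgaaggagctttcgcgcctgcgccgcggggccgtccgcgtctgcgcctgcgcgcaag
KCNJ13: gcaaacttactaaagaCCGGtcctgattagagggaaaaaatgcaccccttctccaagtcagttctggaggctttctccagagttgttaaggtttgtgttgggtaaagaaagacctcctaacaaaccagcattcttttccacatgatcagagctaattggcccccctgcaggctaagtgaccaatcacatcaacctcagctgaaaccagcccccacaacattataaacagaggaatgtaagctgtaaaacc
PHYHD1: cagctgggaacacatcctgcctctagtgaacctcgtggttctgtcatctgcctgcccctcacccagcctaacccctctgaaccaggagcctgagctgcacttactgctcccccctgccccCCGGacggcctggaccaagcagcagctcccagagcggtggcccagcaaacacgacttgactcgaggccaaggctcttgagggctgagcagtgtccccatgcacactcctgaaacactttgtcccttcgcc

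PRORP, the nuclease subunit of mitochondrial RNase P, lies on the plus strand at chr14:35121589-35121838. Its window, here and below including the 50 bases after the start, had 10.7% and 7.41% 5mC over 28 and 27 tags in HepG2, against 7.69% and 0% over 13 and 11 tags in H1ES. IPO4, a nuclear import receptor, is on the minus strand at chr14:24188817-24189066, with 7.41% in both HepG2 libraries and 0% in both H1ES libraries. PSME1, a subunit of the proteasome activator PA28, is on the plus strand at chr14:24135944-24136193. It had 4.17% and 0% in HepG2, against 0% in both H1ES libraries, where only 6 and 5 tags were counted. All 3 promoters were thus little methylated in both lines.

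CDK10, a cyclin-dependent kinase gene, is on the plus strand at chr16:89686439-89686688 and differed between the lines. Its window had 100% 5mC in both HepG2 libraries over 15 and 12 tags, against 14.3% and 22.2% in H1ES over 14 and 9 tags. The single cells pooled gave 100% of 15 tags in HepG2, against 25% of 8 tags in H1ES. It holds 3 CCGG and 29 CG dinucleotides in the printed stretch. KCNJ13, an inward-rectifier potassium channel gene on the minus strand at chr2:232776566-232776815, holds 1 CG and was at 100% in both HepG2 libraries, against 100% and 71.4% in H1ES. PHYHD1, on the plus strand at chr9:128920732-128920981, had 89.5% and 94.4% in HepG2, against 91.3% and 76.9% in H1ES. CDK10 was therefore the only promoter of these 3 whose values in the lines lay far apart. COASY and CCDC167, also unmethylated, and SPON2 and NPIPB12, also methylated, complete the 10 promoters; NPIPB12 belongs to a family of near-identical copies, so its tags are uncertain.

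In the 1000-cell libraries the high-methylation bins had 89.8% and 90.3% 5mC of all tags in HepG2, while the other bins had 51.2% and 52.3%. Their unmethylated share was 9.85% and 9.32%, against 48.6% and 47.4% in the other bins. Single bins ranged from 80.03% to 100% in HepG2 library 1, with a median of 91.1%. The other bins had a median of 40.6%, and their middle 50% ran from 28.6% to 59.3%. No gap in the distribution separates the bins at 80%. The last bins inside were on chromosome 17 at 76700001 (MFSD11, JMJD6) with 80.03% and 83.0%, on chromosome 19 at 4300001 (SH3GL1) with 80.05% and 82.6%, and on chromosome 16 at 30900001 (SETD1A, FBXL19) with 80.4% and 80.1%. The first bins outside, on chromosome 1 at 1800001 (GNB1), 27200001 (WDTC1) and 117000001 (TTF2), each had 80% in library 1 and 81.7%, 80.9% and 80.3% in library 2. Chosen on library 1 alone, 5192 bins passed 80%, and 94.1% of them were over 80% in library 2 with a median of 90.8%. Chosen on library 2 alone, 5364 passed, and 91.1% of them were over 80% in library 1 with a median of 90%.

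**Figure D1:**
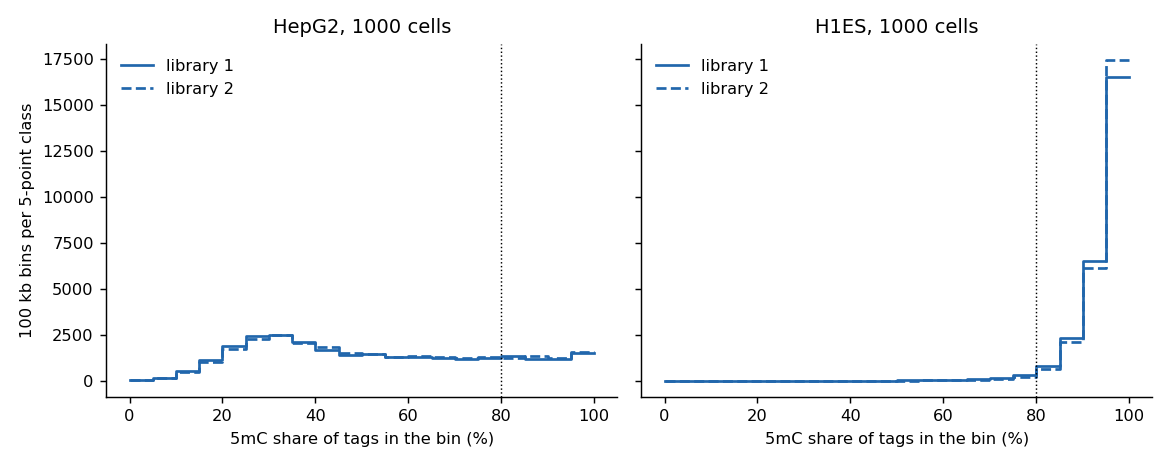
Number of 100 kb bins (y axis) in each 5-point class of 5mC share (x axis, percent of tags) for the libraries of HepG2 (left) and H1ES (right), with a dotted line at 80%. HepG2 bins spread over the whole range with no dip at the line, and H1ES bins pile up near 100%.

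The high-methylation bins were rich in genes. They held 5412 protein-coding genes by gene midpoint, or 1.11 per bin, against 13566, or 0.620 per bin, in the other bins, a ratio of 1.79. They had 0.760 gene starts per bin, against 0.517 in the other bins. Genes covered 80.8% of their length on average, against 37.1%, with medians of 91.8% and 21.2%. Only 222 of them, 4.55%, held no part of a protein-coding gene, against 8913 or 40.7% of the other bins. A cover over 90% was found in 2570 of them, 52.6%, against 4256 or 19.4% of the other bins. They also held more CCGG sites, with a median of 83 against 52 per bin, and so more tags, with medians of 237 against 135 in HepG2 library 1.

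Gene cover and site number both went with the share of bins over 80%. Of bins without a gene 2.43% were high-methylation bins, of bins with under 50% cover 6.97%, of bins with 50% to under 100% cover 35.7%, and of bins wholly inside genes 33.1%. Over 4 classes of CCGG sites per bin of about equal size, from fewest to most, the share was 7.16%, 14.6%, 24.8% and 27.1%. Most bins with at least 50% gene cover were not among them, since 34.6% of these 12412 bins were high-methylation bins.

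Inside genes, the sites of the high-methylation bins were 92.5% and 92.8% 5mC in the HepG2 1000-cell libraries, and outside genes 78.6% and 79.8%. In the single HepG2 cells, which the choice of bins did not use, sites inside genes had 92.0% to 92.5% and sites outside them 77.8% to 79.5%. In the other bins the same cells had 57.7% to 61.6% inside genes and 44.3% to 48.8% outside. Sites inside genes were therefore the more methylated ones in both classes of bins in every HepG2 cell. In H1ES libraries of 1000 cells the high-methylation bins had 94.999% and 95.5% inside genes and 93.0% and 93.6% outside.

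Within the high-methylation bins, most of the most methylated ones lay wholly inside genes. The 1532 bins with a mean HepG2 5mC over 95% had 91.7% gene cover, 0.166 gene starts per bin and a median of 58 CCGG sites, and 69.8% of them lay wholly inside genes. The 900 bins between 80% and 85% had 68.5% cover, 1.31 gene starts per bin and 114 sites, and 9.67% of them lay wholly inside genes. The single HepG2 cells kept this order, with 96.7% to 97.0% 5mC in the first class and 82.1% to 83.4% in the second. H1ES showed it too, with 97.2% and 97.5% in the first class and 92.7% and 93.4% in the second.

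The genes with at least 50% of their length in these bins numbered 5392 of 18980, or 28.4%, and 3465 lay wholly inside. The share depended on gene length. It was 16.1% for genes under 10 kb, 23.3% from 10 to 30 kb, 35.3% from 30 to 100 kb, 51.1% from 100 to 300 kb and 27.1% for genes of 300 kb or more. The 35 longest genes wholly inside, all of at least 300 kb, are led by VPS13B, a lipid transfer protein gene of 864307 bp, then PLCB1 (a phospholipase C), LPP, TTC28 and GMDS (a GDP-mannose dehydratase). VPS13B had 98.4% and 98.6% 5mC in HepG2, against 99.0% and 99.1% in H1ES. PLCB1 had 97.0% and 96.7% in HepG2, against 96.8% and 97.2% in H1ES. TTC28, with 95.3% and 95.8% in HepG2 against 94.6% and 95.6% in H1ES, was also level between the lines.

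**Figure D2:**
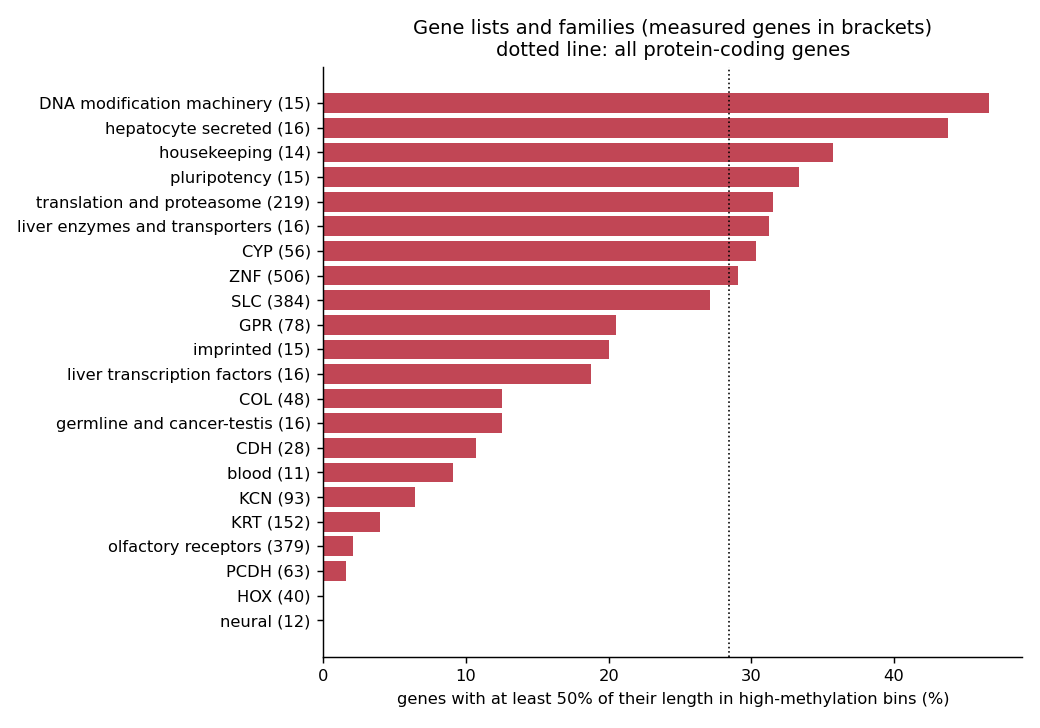
Share of the measured genes of each list or symbol family with at least 50% of their length in high-methylation bins (bars, percent), with the number of genes in brackets. The dotted line is the share of all protein-coding genes, 28.4%; the lowest bars are the neural and HOX genes at 0.

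Gene lists fell on both sides of that 28.4%. Genes of secreted hepatocyte proteins were in these bins in 7 of 16 cases, and liver enzymes and transporters in 5 of 16. APOB, the main protein of low-density lipoprotein, had 83.0% and 89.0% 5mC over its body in HepG2, against 91.7% and 91.4% in H1ES. F2, prothrombin, had 93.8% and 92.7% in HepG2, against 97.2% and 97.8% in H1ES. TTR, transthyretin, was at 100% in all 4 libraries of 1000 cells. CPS1, the entry enzyme of the urea cycle, had 98.5% and 95.8% in HepG2, against 100% in both H1ES libraries. These bodies lay in bins chosen for high 5mC in the same HepG2 libraries, so their HepG2 values are a description. So are those of the genes in these bins named below. Pooled single HepG2 cells, which the choice did not use, had 86.5% at APOB, 89.4% at F2, 95.7% at TTR and 95.1% at CPS1. In H1ES these bodies were highly methylated too. APOH, beta-2-glycoprotein I, was less methylated in HepG2. It had 60.5% and 55.7% in HepG2 over 76 and 61 tags, against 98.5% and 98.0% in H1ES, although its bin passed the 80%. Of the liver transcription factors 3 of 16 were in these bins, among them NR1H4, the bile acid receptor FXR, with 91.7% and 90.7% in HepG2 against 98.0% and 98.9% in H1ES. GATA4, a zinc-finger factor of heart and endoderm, had 88.1% and 87.3% in HepG2, against 71.0% and 63.9% in H1ES.

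Of the pluripotency genes 5 of 15 lay in these bins. L1TD1, an RNA-binding protein gene of pluripotent cells, had 84.1% and 89.7% in HepG2, against 61.3% and 55.4% in H1ES. SALL4, a zinc-finger factor, had 80.7% and 79.1% in HepG2, against 96.9% and 96.5% in H1ES. LEFTY1, a Nodal antagonist, had 13.6% and 13.04% in HepG2, against 72.2% and 65.0% in H1ES, over 20 to 36 tags. In pooled single cells it had 56% of 25 tags in HepG2, against 83.3% of 24 tags in H1ES. The members of this list therefore differed between the lines in both directions. The DNA modification machinery had 7 of 15 genes there. DNMT1, the maintenance methyltransferase, had 96.4% and 97.0% in HepG2, against 98.1% and 99.1% in H1ES. UHRF1, its partner at replicated DNA, had 91.4% and 92.7% in HepG2, against 97.8% and 98.3% in H1ES. TET3, which oxidises 5mC, had 93.1% and 92.9% 5mC in HepG2, against 91.0% and 89.5% in H1ES. Its 5hmC was 0.566% and 0.495% in HepG2, against 3.23% and 3.99% in H1ES.

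Of the other lists, 5 of 14 housekeeping genes and 69 of 219 genes of translation and the proteasome (31.5%) lay there, beside 28.4% of all genes. GAPDH, a glycolytic enzyme with a short gene, had 52.2% and 50% in HepG2, against 59.6% and 41.2% in H1ES. ZNF genes were there in 147 of 506 cases (29.1%), SLC genes in 104 of 384 (27.1%) and CYP genes in 17 of 56. Other families had lower shares. Olfactory receptor genes were there in 8 of 379 cases (2.11%), KRT genes in 6 of 152 and KCN genes in 6 of 93. The KRT set holds all symbols that start so, among them KRTCAP3, and is not a set of keratins alone. Its median gene length was 1153 bp. Clustered and other PCDH genes were there in 1 of 63 cases, HOX genes in 0 of 40, neural genes in 0 of 12 and blood genes in 1 of 11. The blood gene is RUNX1, a haematopoietic transcription factor, with 86.8% and 89.0% in HepG2 against 91.7% and 95.6% in H1ES. RBFOX1, a neuronal splicing factor with no base in these bins, shows the opposite state with 26.8% and 29.5% in HepG2, against 96.7% and 96.5% in H1ES. Germline genes were there in 2 of 16 cases, imprinted genes in 3 of 15, GPR genes in 16 of 78, COL genes in 6 of 48 and CDH genes in 3 of 28. The lists differ in gene length, for which these counts are not adjusted.

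Along genes in these bins, 5mC in single HepG2 cells was lower at the gene start, high over the body and lower again past the gene end. For 2783 genes of at least 30 kb with at least 50% of their length in these bins, the gene body past its first 10% of length had 94.2% to 94.5% 5mC over the 5 cells. The 3496 genes of that length with no base in these bins had 51.9% to 56.0%. The flanks of the first set had 75.6% to 77.6% from 5 to 50 kb upstream, 83.4% to 84.4% in the first 5 kb downstream and 73.1% to 75.4% from 5 to 50 kb downstream. The flanks of the second set had 58.2% to 61.7% upstream and 58.6% to 61.5% downstream. The sets were chosen by where the gene bodies lie and not by the flanks, so the order of bodies and flanks in HepG2 follows from the choice. Genes of both sets had bodies of high methylation in H1ES, at 96.7% and 97.0% in the first set and 95.4% and 95.8% in the second.

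**Figure D3:**
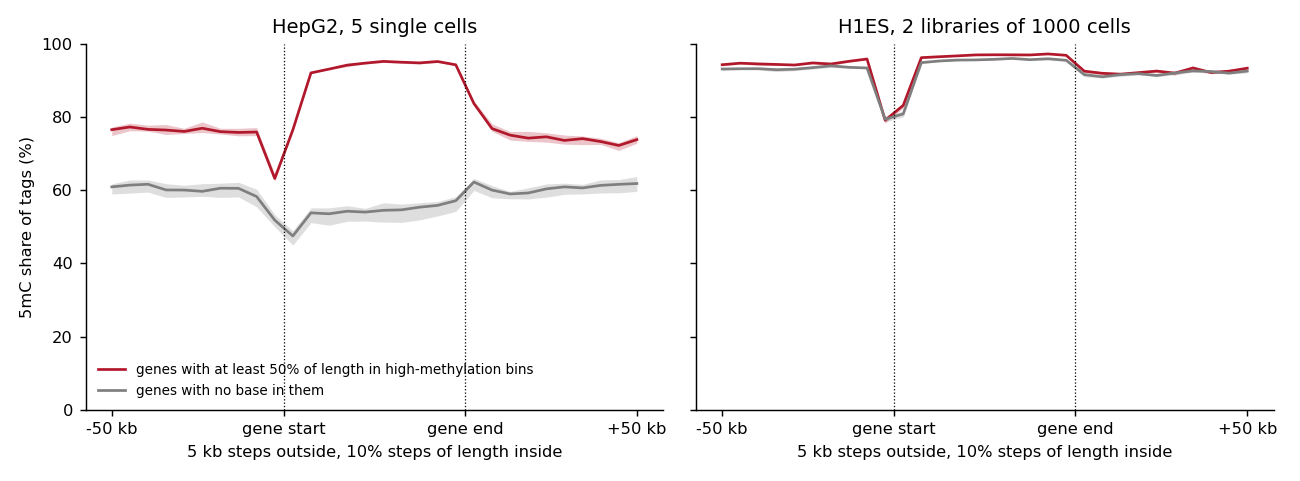
5mC share (y axis, percent of tags) along genes of at least 30 kb, in 5 kb steps outside and steps of 10% of gene length inside, for genes in high-methylation bins (red) and genes with no base in them (grey), as the mean with the range over libraries shaded. In HepG2 single cells (left) the red line is highest in the gene body and the grey one is not, which follows from how the genes were chosen; in H1ES (right) the lines lie close together.

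Gene starts in the high-methylation bins were little methylated. Over 3711 starts, single HepG2 cells had 21.02% to 24.7% 5mC in the 500 bases before the start and 19.2% to 24.2% in the 500 after it. Between 4500 and 5000 bases downstream they had 90.3% to 91.6%, and at the same distance upstream 79.9% to 83.0%. The 11318 starts in other bins had 25.99% to 28.6% in the 500 bases before the start, 69.9% to 73.0% at 4500 to 5000 bases downstream and 60.0% to 64.0% upstream. In H1ES, the starts in high-methylation bins had 24.9% and 25.8% in the 500 bases before the start, against 34.3% and 35.8% in other bins. Of promoters in high-methylation bins with at least 5 tags in both libraries, 224 of 361 (62.0%) were under 20% 5mC and 31 (8.59%) over 80% in HepG2, while 215 of 372 (57.8%) and 29 (7.80%) were so in H1ES. In the other bins 576 of 1085 (53.1%) were under 20% and 84 (7.74%) over 80% in HepG2, and 555 of 1113 (49.9%) and 229 (20.6%) were so in H1ES. The promoters with enough tags were few of the 3711 and 11318 in the 2 classes of bins. They were picked in each line separately, so the shares of the lines do not compare the same promoters.

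Of the 501739 CCGG sites in high-methylation bins, 84044 had at least 5 tags in both HepG2 libraries. Site by site, these had 87.7% of sites over 80%, 8.36% between 20% and 80% and 3.92% under 20% in HepG2. The sites of other bins with as many tags had 37.1%, 33.7% and 29.3%. Sites with at least 10 other CCGG sites within 500 bases were little methylated even in the high-methylation bins, with 38.3% and 38.8% 5mC in HepG2, against 37.0% and 37.4% in H1ES. At such crowded sites the other bins were near these values, with 35.6% and 35.8% in HepG2 and 37.1% and 37.6% in H1ES. In the high-methylation bins 56496 crowded sites held 14756 tags in HepG2 library 1, so few could pass the minimum of 5 tags. The shares by site above therefore say little about crowded sites. Isolated sites, with no other CCGG within 500 bases, had 92.4% and 92.7% in high-methylation bins and 46.0% and 47.0% in other bins of HepG2.

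The high-methylation bins lay in clusters. Of these bins 75.3% had another next to them, while 19.4% of the other bins did. The bin that follows was a high-methylation bin in 51.5% of cases after a high-methylation bin and in 10.9% after another bin, beside 18.2% over all. They formed 2378 runs, of which 1208 were single bins, 174 held at least 5 bins and 9 held at least 10. The 174 longer runs took up 1085 bins, or 22.2%. The clusters were thus mostly short, and 1 gene can span several neighbouring bins.

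The longest run had 13 bins, on chromosome 2 from 202200001 to 203500000, over NBEAL1, BMPR2 (a bone morphogenetic protein receptor), FAM117B and ABI2. It had 90.1% and 91.4% 5mC in HepG2, against 95.7% and 96.3% in H1ES, and 89.6% to 92.1% in single HepG2 cells. A run of 12 bins on chromosome 8 from 139800001 to 141000000 holds TRAPPC9, PTK2 (focal adhesion kinase) and AGO2 (a core protein of RNA interference), with 91.3% and 92.1% in HepG2 against 96.9% and 97.2% in H1ES. Another of 12 bins on chromosome 13 from 93200001 to 94400000 holds 1 gene, GPC6, a cell-surface glypican. It was the most methylated of the 5 named runs in HepG2, with 97.2% and 97.5% in HepG2 against 97.0% and 97.2% in H1ES, and it held only 418 CCGG sites. A run of 11 bins on chromosome 12 from 111400001 to 112500000 covers HECTD4, ATXN2, NAA25 and TMEM116, with 90.2% and 90.1% in HepG2 against 95.4% and 95.5% in H1ES. A run of 10 bins on chromosome 1 from 9700001 to 10700000 covers KIF1B, PEX14, UBE4B and CLSTN1, with 89.9% and 90.3% in HepG2 against 95.4% and 95.01% in H1ES. It is 1 of 5 runs of 10 bins and is named for its tags, the most among them in HepG2.

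Chromosomes differed in their share of high-methylation bins, from 13.4% on chromosome 4 to 27.1% on chromosome 17 and 26.9% on chromosome 22. Genes per bin were 0.407 on chromosome 4, 1.48 on chromosome 17 and 1.19 on chromosome 22. Chromosome 19, with the most genes per bin at 2.62, had 21.5%. In the first 5 Mb of chromosomes the share was 23.04% and in the last 5 Mb 23.7%, against 17.8% elsewhere.

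Outside runs, HepG2 methylation was lower in the other bins of the next steps, where high-methylation bins of neighbouring runs were left out. For 614 runs of at least 3 bins, the outermost bins had 89.0% to 89.9% 5mC in single HepG2 cells. The bins just outside had 64.7% to 67.4%, those 1 step further 55.8% to 59.3%, and those at the fifth step 52.4% to 56.6%. H1ES showed a small step at the same edges, with 94.6% and 95.2% in the outermost bins and 92.2% and 92.9% just outside. Both sides of the HepG2 step follow from the choice of bins, since a bin outside a run either failed the 80% in a HepG2 library or did not reach the tag minimum. At the further steps too only other bins were counted, 1204 at the first step, 996 at the second and 923 at the fifth. Their values are therefore not the mean methylation at that distance.

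The single HepG2 cells had the high methylation of these bins in each cell. Their 5mC was 89.4%, 89.5%, 89.4%, 89.2% and 89.9% in cells 1 to 5, a mean of 89.5% ± 0.261 (SD, n = 5). The other bins had 53.5%, 54.2%, 50.2%, 53.1% and 54.5%, a mean of 53.1% ± 1.71 (SD, n = 5). The 95% Clopper-Pearson interval of the most shallow cell, cell 1, was 89.2% to 89.5% in high-methylation bins, and intervals cover counting error only. The difference ranged from 35.3 to 39.2 percentage points and was largest in cell 3, whose other bins were lowest. Without cells 3 and 5, the deepest, the mean difference was 35.7 points instead of 36.4. The labels name no culture for the cells, so they count as 1 sample and no test was made.

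Bin by bin, no high-methylation bin with at least 20 tags was under 50% in any HepG2 cell. In cells 1, 2 and 4, between 2738 and 2969 of these bins had 20 tags, and 87.1%, 87.8% and 87.7% of them were over 80%. In the deeper cells 3 and 5, 4859 and 4845 bins had 20 tags, and 91.4% and 94.9% were over 80%. Among the other bins, 6590 to 7032 had 20 tags in cells 1, 2 and 4, and 21267 and 20403 in cells 3 and 5. In cells 1, 2 and 4, 7.18% to 8.76% of them were over 80% and 31.9% to 35.2% under 50%. In cells 3 and 5, 2.39% and 4.18% were over 80%, and 62.5% and 54.6% under 50%. These shares thus do not compare the same bins. Over the 5314 other bins with 20 tags in all 5 cells, 26.3% to 32.2% were under 50% in a cell. With 20 tags in all 5 cells, 1589 of 2287 high-methylation bins (69.5%) were over 80% in every cell, against 23 of 5314 other bins (0.433%). Thinned to 20 tags per bin and cell, which removes the difference in depth among these bins, 1020 (44.6%) and 5 bins were so. Of the 2287 bins, 2 were then under 50% in some cell. H1ES cells had 3176 of 3272 high-methylation bins (97.1%) over 80% in all 5 cells, and 8465 of 9365 other bins (90.4%).

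**Figure D4:**
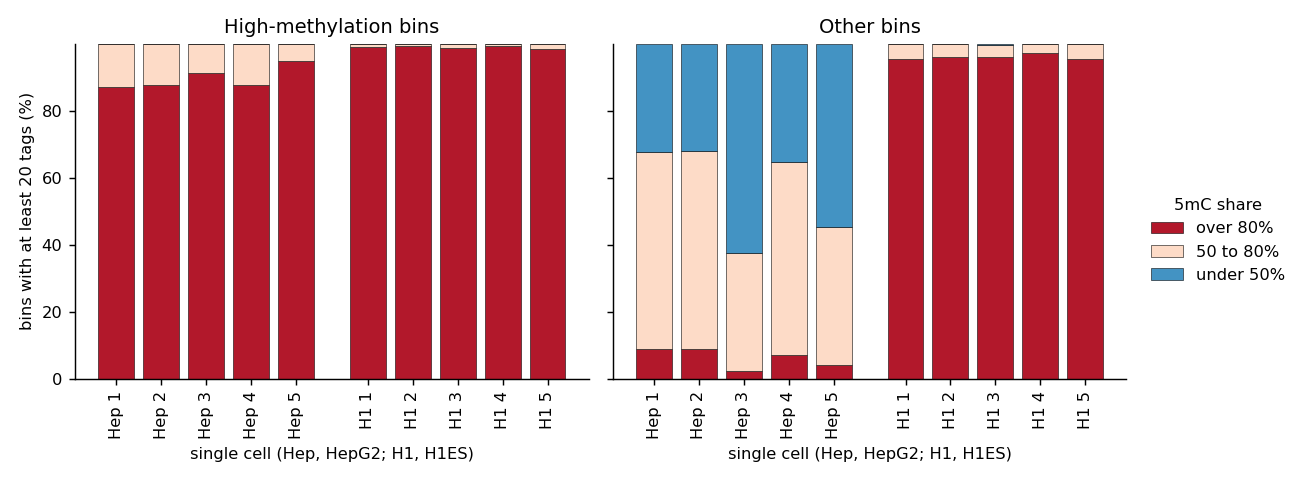
Share of bins with at least 20 tags (y axis, percent) that were over 80%, from 50% to 80% and under 50% 5mC in each single cell, for high-methylation bins (left) and other bins (right). No high-methylation bin falls under 50% in a HepG2 cell, while 31.9% to 62.5% of the other bins do.

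The spread between cells was smaller in the high-methylation bins of HepG2, with a median SD over the 5 cells of 3.40 points, against 5.68 points in the other bins. Thinned to 20 tags the medians were 5.70 and 9.62 points. A share near 100% has less room to vary by counting, so these SDs are no measure of variation among cells alone. The 5 bins with the lowest pooled 5mC in single HepG2 cells, among those with at least 100 tags, are given next. On chromosome 9 at 96600001 (CDC14B, a phosphatase) the pooled cells had 71.4%, with 66.7% to 79.4% per cell, and the 1000-cell libraries 80.1% and 81.7%. The bins on chromosome 13 at 44500001 (TSC22D1), chromosome 2 at 219100001 (NHEJ1, a DNA end-joining factor), chromosome 1 at 92800001 (DIPK1A and RPL5) and chromosome 4 at 47500001 (ATP10D and CORIN) had pooled values of 71.4%, 73.0%, 73.4% and 73.6%. In the 1000-cell libraries these 5 bins lay between 80.1% and 85.9%.

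In H1ES the high-methylation bins were also methylated, as were nearly all bins. Over 80% in both H1ES libraries were 4845 of them (99.2%) and 21226 of the other bins (97.0%). Pooled over tags, their 5mC was 94.6% and 95.1%, against 93.3% and 94.0% in the other bins, a difference of 1.24 ± 0.159 points (SD, n = 2). In single H1ES cells it was 94.8% to 95.3%, against 93.3% to 94.1% in the other bins, with a difference of 1.11 to 1.53 points and the same direction in all 5 cells. Outside genes the direction was the opposite in all 7 libraries. There the high-methylation bins had 93.01% and 93.6% in the 1000-cell libraries, against 94.2% and 94.8% in the other bins, and 93.3% to 93.9% in single cells, against 94.1% to 94.9%. Among the classes of gene cover, the 222 bins without a gene also went the other way, differing from other bins without a gene by -0.445 and -0.419 points. Unlike the pooled share, medians over bins were lower in the high-methylation bins of the H1ES 1000-cell libraries. They were 96.1% and 96.5%, against 96.4% and 96.7% in the other bins. In each single H1ES cell, over bins with at least 20 tags, the median was higher in the high-methylation bins.

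**Figure D5:**
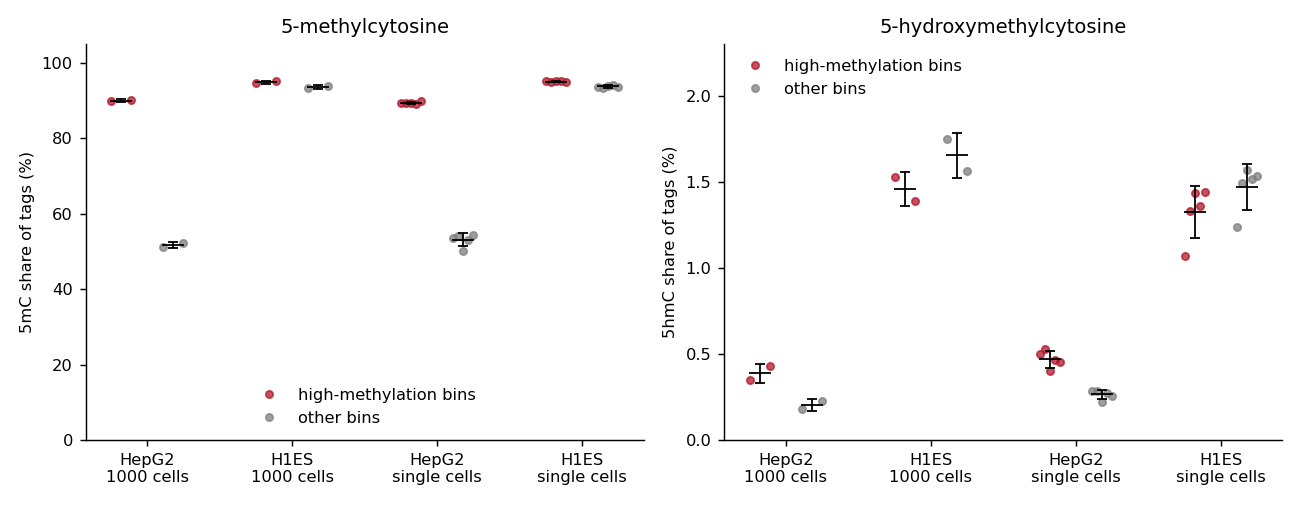
5mC (left) and 5hmC (right) as percent of all tags in high-methylation bins (red) and other bins (grey), 1 point per library, with the mean and SD as black bars. The 5mC gap is wide in HepG2 and narrow in H1ES; 5hmC is higher in the high-methylation bins of HepG2 and lower in those of H1ES.

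H1ES 5hmC was slightly lower in the high-methylation bins. It was 1.53% and 1.39% of tags in the 1000-cell libraries, against 1.75% and 1.56% in the other bins, a difference of -0.195 ± 0.0316 points (SD, n = 2). In the single cells the mean was 1.33% ± 0.150, against 1.47% ± 0.131 in the other bins (SD, n = 5 each), and the high-methylation bins were lower in 5 of 5 cells. The levels of the groups overlapped between cells, so the difference stands within a cell and not across cells. Of modified tags alone, 5hmC was 1.51% on average against 1.74% in the 1000-cell libraries. No 5hmC-free library was analysed here, so the background of 5hmC tags is unknown.

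The size and sign of this difference went with gene content and site number. In bins without a gene the high-methylation bins had more 5hmC, by 0.196 and 0.175 points in the H1ES 1000-cell libraries. With under 50% gene cover the difference was -0.293 and -0.278 points, with 50% to under 100% cover -0.367 and -0.294, and wholly inside genes -0.109 and -0.135. Over the 4 classes of CCGG sites per bin the differences were 0.0231 and -0.0123 in the class with fewest sites, -0.0453 and -0.0438 in the second, -0.199 and -0.168 in the third, and -0.397 and -0.365 in the class with most. At sites inside genes the high-methylation bins had 1.53% and 1.38%, against 1.81% and 1.63%. At isolated sites they had 1.48% and 1.32%, against 1.60% and 1.41% in the other bins.

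Among themselves, the high-methylation bins differed in H1ES 5hmC from library to library in the same order. The 4024 bins with at least 100 tags in each 1000-cell library were ranked by 5hmC in H1ES library 1 and split into 4 classes of 1006 bins. From the lowest to the highest class, library 2 had 1.01%, 1.18%, 1.42% and 1.95%. The median over the single H1ES cells was 0.977%, 1.21%, 1.40% and 1.85% in the same order. HepG2 library 1 had 0.321%, 0.341%, 0.361% and 0.384%. Mean gene cover hardly differed, at 81.7% in the lowest class and 81.1% in the highest, while gene starts per bin were 0.933 and 0.603. Over these bins the correlation of 5hmC between the H1ES libraries was r = 0.37 (Spearman's rho 0.33), a description over bins of sparse counts, in which 201 bins had no 5hmC tag in library 1 and 439 had none in library 2.

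Among high-methylation bins with at least 100 tags in each 1000-cell library, 1 in MSI2, an RNA-binding protein gene, had the highest mean H1ES 5hmC. This bin lies on chromosome 17 from 57500001 to 57600000. It had 0.203% and 1.62% in HepG2, against 5.29% and 6.88% in H1ES, from 1 and 6 tags against 22 and 19 tags. The next bins lie over CPEB4 on chromosome 5 at 173900001, a translational regulator, with 0.588% and 0% in HepG2 against 5.91% and 6.02% in H1ES. In TRIO, a guanine nucleotide exchange factor, on chromosome 5 at 14200001, it was 0% and 1.02% in HepG2, against 6.58% and 4.50% in H1ES. The bins at TSPYL5 on chromosome 8 at 97200001 and FNDC3B on chromosome 3 at 172100001 follow. These 5 were chosen for their high values in the H1ES libraries, so the contrast with HepG2 is a description. The single H1ES cells pooled, which did not enter the choice, gave 3.93% in TRIO (7 of 178 tags, 95% interval 1.60% to 7.93%) and 2.40% in MSI2 (6 of 250, 0.886% to 5.15%). They gave 1.76% in FNDC3B (3 of 170), 0.714% in CPEB4 (1 of 140) and none of 149 tags at TSPYL5, which allows up to 2.45% by the same exact interval. Of the 5, TRIO alone had an interval wholly above the 1.33% mean of the high-methylation bins in these cells.

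Between the lines, 5hmC in the high-methylation bins was 0.350% and 0.430% in HepG2, against 1.53% and 1.39% in H1ES. The exact two-sided permutation test gave p = 0.333, the smallest that 2 libraries against 2 allow. By edgeR's quasi-likelihood test over all bins, 19.6% changed in 5hmC odds at an adjusted p under 0.05, and 823 of the 4884 high-methylation bins (16.9%) did. Of these 821 were lower in HepG2 and 2 higher; over all bins, 5248 were lower and 2 higher. Their share is near that over all bins, and their median log2 odds were -1.87, against -2.61 over all bins. Taken relative to each library's own odds over the bins measured, 3 bins of all were called, each a high-methylation bin higher in HepG2. The median was 0.67, against -1.26 over all bins. The choice of bins used the unmethylated and 5mC tags of the same HepG2 libraries. Odds of 5hmC against both kinds are therefore a description for these bins, also relative to each library. Against 5mC tags only, 484 of the high-methylation bins and 1806 of all bins were called, with medians of -1.83 and -1.80. By DESeq2 300 high-methylation bins and 2807 of all bins were called. The share called was thus below that over all bins by DESeq2, and above it against 5mC tags only. In edgeR with a library left out, the median log2 odds of high-methylation bins were -1.64 and -1.87 without H1ES library 1 or 2. They were -2.03 and -2.29 without HepG2 library 1 or 2. Over all bins these medians were -2.42, -2.66, -2.85 and -3.01 in the same order.

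Both bins with higher 5hmC odds in HepG2 by edgeR as measured were high-methylation bins and are named here after their values were seen. The bin on chromosome 11 from 47700001 to 47800000 had 6 and 2 5hmC tags in HepG2, against 0 and 0 in H1ES (log2 odds 5.16, adjusted p = 0.0214). The bin on chromosome 12 from 32800001 to 32900000 had 3 and 6 tags in HepG2, against 1 and 0 in H1ES (log2 odds 3.26, adjusted p = 0.0461). Over all bins 0.00747% were higher. Both calls rest on few tags, and 0 bins were called higher by edgeR without H1ES library 1, without H1ES library 2 or with bins shifted by 50 kb.

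Within HepG2 the high-methylation bins had more 5hmC of all tags, with 0.350% and 0.430% against 0.180% and 0.227% in the other bins. Single HepG2 cells had 0.470% ± 0.0491, against 0.267% ± 0.0267 (SD, n = 5 each), and the groups did not overlap. Of modified tags alone the 1000-cell libraries had 0.388% and 0.474%, against 0.350% and 0.433%, and the single cells differed by -0.000549 to 0.0634 points. On that scale the gap was within 0.0634 points in every single cell, and cell 4 had it in the other direction. The contrast between the lines in the gap, 0.186 points in HepG2 and -0.195 in H1ES, was 0.381 points (exact permutation test, two-sided, p = 0.333, the smallest possible). The choice of bins used the HepG2 libraries of this contrast, so it is a description.

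In 5mC, a contrast of which the choice of bins used the HepG2 side, 91.6% of all bins were called by edgeR, and 2768 of the high-methylation bins (56.7%) were. Of these 2549 were lower in HepG2, beside 24273 or 90.7% of all bins, and 219 were higher, beside 237 or 0.885% of all bins. Relative to each library's own odds, 3759 high-methylation bins were higher and 24 lower, against 7130 higher and 14702 lower over all bins. The 5 bins with the lowest H1ES 5mC were chosen on both sides of this contrast, so their values are a description. On chromosome 19 at 13000001 (NFIX, a nuclear factor I gene, and LYL1, a blood transcription factor) 5mC was 91.7% and 92.3% in HepG2, against 72.5% and 69.9% in H1ES. On chromosome 17 at 61400001 (TBX4 and TBX2, T-box factors of limb and heart) it was 86.6% and 86.0% in HepG2, against 63.2% and 72.3% in H1ES. On chromosome 6 at 1600001 (FOXC1, a forkhead factor, and the end of GMDS) it was 87.6% and 87.98% in HepG2, against 73.0% and 72.8% in H1ES. The bins at KIZ on chromosome 20 (21100001) and CHIC2 on chromosome 4 (54000001) complete the 5. The single H1ES cells pooled were low there too, with 76.1% at NFIX, 71.2% at TBX4, 74.2% at FOXC1, 68.1% at KIZ and 69.6% at CHIC2.

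Of the high-methylation bins, 3 held under 10 CCGG sites. The bin on chromosome 16 from 46300001 to 46400000 held 3 sites and 1432 tags in HepG2 library 1, or 477 tags per site. This was the highest of all these bins, where the upper quartile was 3.40 tags per site. The highest value among these bins was 418 in HepG2 library 2, and 313 and 185 in H1ES libraries 1 and 2, so such extremes occurred in both lines.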

How the data were processed

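Per the labels' protocol, HpaII cut unmethylated CCGG sites, and later MspI digestions around a glucosylation step tagged 5hmC and 5mC sites. Bowtie2 2.3.4.1, cutadapt 1.5, UMI-tools 0.5.4 and the build hg38 are named in the submitters' processing notes; the counting rule is not given in the sources used here. The deposited tables hold, per CCGG site, the fraction of tags of each of 3 kinds and the count of all tags. Fraction times count was whole within 0.001414, so tags of each kind were recovered. The tables have no header. The unmethylated column was told from its high values at crowded sites, and the larger of the other columns was taken as 5mC, so every 5hmC value rests on this.

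Shares are tags of a kind over all tags, pooled per library. The table of genes is RefSeq GRCh38.p14, and gene starts come from its promoter table, which covers 15100 of 19122 protein-coding genes. The quasi-likelihood test of edgeR 4.0.16 (R 4.3.3) was run on the tags of each bin, with a term for each library, a trended dispersion and Benjamini-Hochberg adjustment over 26772 bins at 0.05. Effects are log2 odds of a mark against both other kinds. The script was tested on simulated data. Other values used Python 3.11.15, SciPy 1.17.1, NumPy 2.4.6 and pandas 2.3.3, and figures matplotlib 3.10.9. Alternatives were DESeq2 1.42.0, limma 3.58.1 on logit shares (pseudocount 0.5), other tag minimums and thresholds, shifted bins, isolated sites, odds relative to each library, a replicate block and each library left out.

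Regions were named by a rule: the 5 longest runs, and among bins with 100 tags in each 1000-cell library the 5 highest in H1ES 5hmC, lowest in H1ES 5mC and lowest in pooled HepG2 single cells. Genes of a list were named by the part of the gene in these bins, and promoters by tags. Bins, lists and tests were chosen with earlier results of these data known.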

Additional observations from a re-analysis of the deposited data

Results flagged for a closer look

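In HepG2 single cell 3 the gap between high-methylation and other bins stood apart from the other 4 cells, at -39.4 points for unmethylated tags and 39.2 points for 5mC, where the other cells had 35.3 to 36.1 points for 5mC. H1ES single cell 1 stood apart with 1.24% 5hmC in the other bins, where the other cells had 1.49% to 1.57%. Of 20 groups of 5 cells examined in this way 3 stood apart, and chance gives about 1 in 20. The unmethylated and 5mC gaps of cell 3 are nearly the same measure.

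The gap in 5hmC between high-methylation and other bins differed between the lines. In the 1000-cell libraries, HepG2 minus H1ES was 0.381 points of all tags and 0.261 points of modified tags (exact permutation test, two-sided, p = 0.333, the smallest possible), with the gap above 0 in both HepG2 libraries and below 0 in both H1ES libraries. The choice of bins used the HepG2 1000-cell libraries, so their side of this contrast is a description. In single cells the difference of all tags was 0.346 points, and it was not tested. The gap of all tags was above 0 in 5 of 5 HepG2 cells and below 0 in 5 of 5 H1ES cells. Of modified tags the gap was -0.000549 to 0.0634 points in HepG2 cells, with cell 4 below 0, and -0.193 to -0.117 points in H1ES cells.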

How the results depend on the processing

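All alternatives kept the direction of each difference in share and of the gene ratio; relative to each library, the 5hmC calls were higher in HepG2 instead of lower. The number of bins ran from 3665 to 6119. The ratio of genes per bin was 1.64 with a minimum of 50 tags, 2.10 over 75%, 1.51 over 85%, 2.14 at isolated sites and 1.83 to 1.87 with 1 HepG2 library in the rule. The H1ES 5mC difference was 0.648, 1.95, 1.41 and 0.605 points over 75%, over 85%, in shifted bins and at isolated sites, and 1.05 to 1.35 with a library left out. In single H1ES cells it was 0.775 over 75%, 1.98 over 85% and 0.851 at isolated sites. At isolated sites the H1ES 5hmC difference was -0.123 and the HepG2 single-cell 5mC difference 45.3. The share of bins with a neighbour was 81.5%, 68.0% and 77.7% over 75%, over 85% and at isolated sites, and 76.1% to 77.5% with 1 HepG2 library in the rule.

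The count of 5hmC calls depended on the setting. Over all bins it was 5250, against 2807 by DESeq2, 1806 against 5mC tags only, 3 relative to each library and 1008 to 3572 with a library left out. Among the high-methylation bins it was 823, against 300, 484, 3 and 111 to 561, lowest without H1ES library 1. The causes were not tested. Counts of 5mC calls stayed within 1.5 times, but relative to each library 3759 high-methylation bins were higher and 24 lower, against 219 and 2549 as measured. With a replicate block, 2075 bins and 283 high-methylation bins were called for 5hmC. The replicate numbers did not pair the libraries (r = 0.0084 between deviations of same-numbered libraries over bins). With sparse 5hmC tags, many bins could not show even large differences.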
